A study of Mus musculus with 3 samples.

Results

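Interferon-γ, its receptor chains and genes that interferons induce were examined in helper T cells cultured under 3 cytokine conditions. The list held 51 genes, chosen as the interferon-γ gene, the receptor genes for interferon-γ and type I interferon, and interferon-stimulated genes. A gene was measured when a probe set of the array carried its symbol and no other, and where there were several the brightest on average stood for it. Of the 51 genes, 49 were measured, among 18193 genes in all. Isg15 was matched only by a probe set shared with another gene, and Ifi44 was not analysed here.

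The cells were CD4+CD25- T cells from female mice on a BALB/c background, 6-8 weeks old, taken from spleen and lymph node. The mice lacked Stat6, the transcription factor of IL-4 signalling, and T-bet (Tbx21), the transcription factor of Th1 cells. This Stat6/T-bet double knockout was shared by every culture, so none of the arrays shows cells with intact T-bet, a main activator of the interferon-γ gene. Stimulation lasted 2 days, with anti-CD3 bound to the plate (5 µg/ml) and anti-CD28 (1 µg/ml). The first culture received TGFβ (5 ng/ml), the second IL-6 and IL-23 (10 ng/ml each), and the third both IL-6 (10 ng/ml) and TGFβ (5 ng/ml). The number of mice is not given in the labels. Each condition had 1 array, so no difference has a replicate check and no p-value is given. The study set IL-6/TGFβ against TGFβ to find genes of Th17 polarization, and then against the IL-23 condition to set genes of IL-10 control apart from those of IL-17. IL-6/TGFβ and IL-6/IL-23 differ in both TGFβ and IL-23, and no ratio between them belongs to either cytokine alone.

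Interferon-γ binds the IFNGR1 and IFNGR2 chains and signals through the kinases JAK1 and JAK2, which leads to binding at gamma-activated sites in DNA. Type I interferons bind the IFNAR1 and IFNAR2 chains and signal through JAK1 and TYK2 to a complex that includes STAT2 and IRF9 and binds interferon-stimulated response elements. The induced genes block viral entry, sense foreign RNA and DNA, degrade or edit RNA, and supply peptides to MHC class I. In helper T cells interferon-γ is the signature cytokine of the Th1 lineage.

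Levels below are quantile-normalized intensities in arbitrary units, given first for TGFβ, then for IL-6/IL-23, last for IL-6/TGFβ. Ratios are on the log2 scale, and the level of a gene is not comparable with that of another gene. Values under 46.6, below which 95% of 95 probe sets for tissue-restricted genes of other organs lay, were raised to that floor and have no order among themselves. A gene was called higher or lower when the arrays were at least 2-fold apart (1 on the log2 scale) with the brighter array above the floor. The error that can be given is the SD of a log2 ratio between probe sets of the same gene. It was 0.23 for IL-6/TGFβ over TGFβ, 0.30 for IL-6/TGFβ relative to IL-6/IL-23 and 0.31 for IL-6/IL-23 against TGFβ, and it leaves out the spread between cultures, mice and arrays. In these bulk samples, fewer cells of a type and less RNA per cell cannot be told apart.

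Before normalization the array medians were 35.8, 17.8 and 28.1. Of 9 measured T cell identity genes, 9 were above the floor on each array. Markers of other cells were above the floor on at least 1 array for 1 of 3 measured B cell genes (Ms4a1, at most 51.7), 2 of 4 plasmacytoid dendritic cell genes (Tcf4, at most 56.9, and Klk1 at 185.5, 241 and 178), 5 of 7 CD8 and NK cell genes and 3 of 7 myeloid genes. Cd79a and Cd79b of B cells, Siglech and Ccr9 of plasmacytoid dendritic cells, Ncr1 and Klra8 of NK cells, and Cd14, Lyz2, Adgre1 and Itgax of myeloid cells were at the floor on the 3 arrays. The deleted genes gave signal in their own probe sets, with Stat6 at 259, 191 and 223 and Tbx21 at 190, 205 and 118. The labels do not say which exons were removed, so these values check nothing.

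Of the 49 measured interferon-list genes, 33 were above the floor on each array and 7 on 1 or 2 of them. Another 9 were at the floor throughout, namely Dhx58, Oas1a, Oas2, Oasl1, Oasl2, Mx1, Mx2, Rsad2 and Rtp4. Mx1 and Mx2 encode GTPases that trap viral particles, Rsad2 encodes the antiviral radical enzyme viperin, and the Oas genes encode oligoadenylate synthetases and their relatives. Of the remaining genes, 4 (Ifitm1, Oas3, Parp12 and Ifit1) exceeded the floor in the IL-6/IL-23 culture alone.

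**Figure D1:**
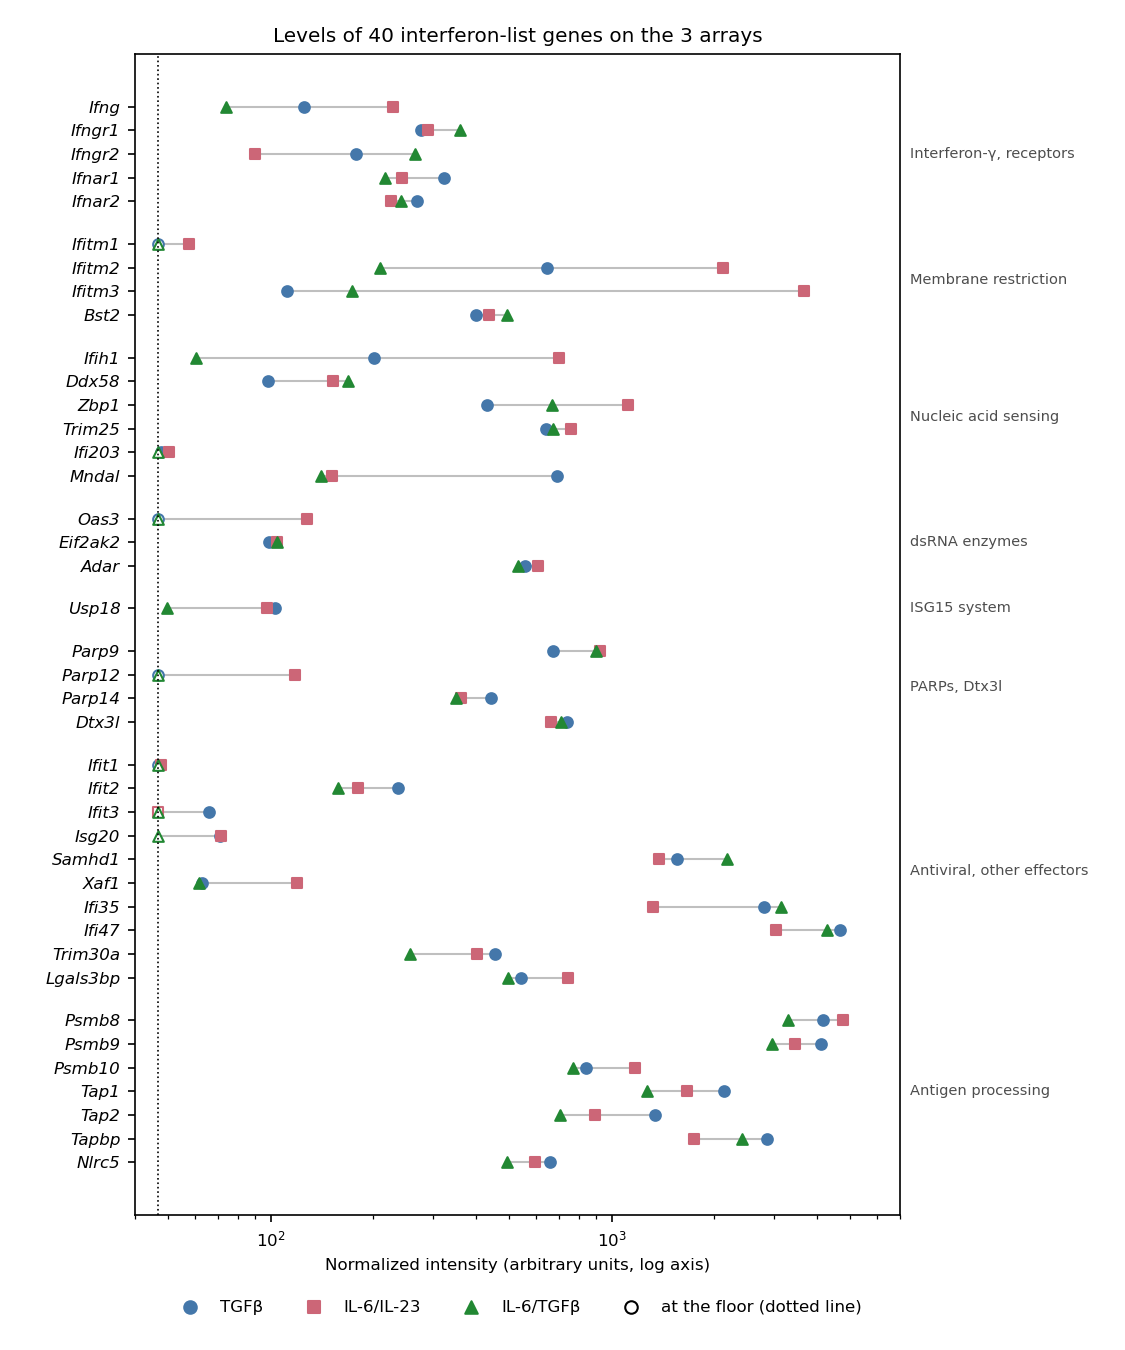
Normalized intensity (log axis, arbitrary units) of the 40 interferon-list genes above the floor on at least 1 array, grouped by role, with 1 point per array and no error bar because each condition had 1 array. Open symbols lie at the floor of 46.6 (dotted line). The widest gap is that of Ifitm3, at 3665 with IL-6/IL-23 and at 111 and 173 on the others, while most antigen processing genes lie close together.

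In IL-6/TGFβ over TGFβ, 0 of the 40 genes above the floor were called higher and 4 lower (10.0%). Over all 9888 genes above the floor, 2.75% were called higher and 2.17% lower. In IL-6/TGFβ relative to IL-6/IL-23, 2 list genes were called higher (5.00%) and 6 lower (15.0%), where all genes gave 3.91% and 3.67%. In IL-6/IL-23 over TGFβ, 6 list genes were called higher (15.0%) and 2 lower (5.00%), where all genes gave 3.71% and 3.44%. The shares of 15.0% lay above those of all genes, and the shares of 5.00% lay near them. Each share of 15.0% counts Oas3 and Parp12, which passed the floor through the IL-6/IL-23 array alone, and the share without them was not computed. The list was also chosen with earlier results of these data known, so its shares are a description and test nothing. The 3 comparisons share arrays in pairs, so their counts are not independent of each other.

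The list as a whole was shifted little. Its median log2 ratios were -0.12, -0.19 and 0.05 in the 3 comparisons, against 0.01, -0.03 and 0.05 over all genes, each smaller than the probe-set SD. The calls came from 11 genes, and 29 of the 40 were called in none of the comparisons. The share of all genes called in at least 1 comparison was not computed, so these counts are read as neither many nor few. Oas3 and Parp12 passed the floor through 1 bright array, so the direction of their difference was fixed by that filter, though not its size. Ifitm1 and Ifit1 passed in the same way and were not called.

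**Figure D2:**
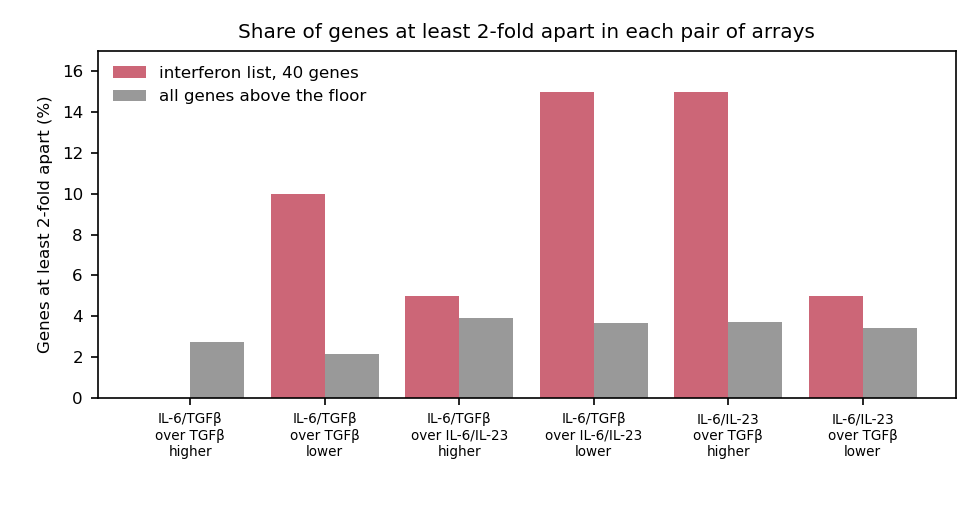
Percentage of genes called at least 2-fold higher or lower in each pair of arrays, for the 40 interferon-list genes above the floor (red bars) and all 9888 genes above the floor (grey bars), from 1 array per condition. The red bars reach 15.0% for genes lower in IL-6/TGFβ relative to IL-6/IL-23 and higher in IL-6/IL-23 over TGFβ, and 0 for genes higher in IL-6/TGFβ over TGFβ.

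Ifng, which encodes interferon-γ, read 125, 229 and 74.0. As deposited it read 177, 161 and 76.9. IL-6/TGFβ was dimmest on both scales, while the brightest was IL-6/IL-23 after normalization and TGFβ as deposited. Ifng was 3.09-fold lower with IL-6/TGFβ than in the IL-6/IL-23 culture, a log2 ratio of -1.63 with a probe-set SD of 0.30. The other pairs were under 2-fold, at -0.76 for IL-6/TGFβ over TGFβ and 0.87 for IL-6/IL-23 against TGFβ, which became -0.13 without scaling. CD8 T cells and NK cells also make interferon-γ, and their 7 measured markers summed to 578, 553 and 444 with values at the floor counted as the floor. Cd8a read 145, 120 and 80.2, Cd8b1 read 140.0, 174 and 104, and Eomes read 107, 65.3 and floor. Klrk1 (floor, 54.0 and 66.4) and Klrd1 (floor, floor and 53.0) were highest with IL-6/TGFβ, so the markers differed in order, and 0 of these 5 were called between IL-6/TGFβ and IL-6/IL-23. The part of such cells in the Ifng values was not tested.

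Ifngr2, the receptor chain that brings JAK2 to the interferon-γ receptor, had the opposite order. It read 178, 89.7 and 264, lowest with IL-6/IL-23 and highest on the IL-6/TGFβ array. Its ratio for IL-6/TGFβ relative to IL-6/IL-23 was 1.56 (2.95-fold), and a further probe set gave 0.80, which is under 2-fold. For IL-6/IL-23 over TGFβ the ratio was -0.99, just short of the 2-fold rule and past it under the other scalings (-1.03, -1.26 and -2.04), with -0.45 from the further probe set. The ligand-binding chain Ifngr1 differed by less than 2-fold, at 276, 289 and 360. Neither chain of the type I receptor was called, with Ifnar1 at 322, 243 and 216 and Ifnar2 at 268, 225 and 240. A further, dimmer probe set of Ifnar1 read 106, 54.0 and 52.1, just past 2-fold at -1.03 for IL-6/TGFβ over TGFβ, where the one used gave -0.58.

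The largest differences of the list were in the interferon-induced transmembrane proteins, small membrane proteins that hinder the fusion of viruses with cell membranes. Ifitm3 read 111, 3665 and 173 after normalization, and 158, 2785 and 178 as deposited. The IL-6/IL-23 array stood far above both TGFβ-containing cultures. The ratios were 5.04 over TGFβ (32.9-fold) and -4.40 for IL-6/TGFβ relative to IL-6/IL-23 (21.2-fold), while IL-6/TGFβ over TGFβ was under 2-fold at 0.64.

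Ifitm2, a close relative of Ifitm3, read 644, 2123 and 209. The order differed from that of Ifitm3, since here the TGFβ culture lay between the others. Ifitm2 was 3.30-fold higher with IL-6/IL-23 than with TGFβ (1.72), 3.09-fold lower with IL-6/TGFβ relative to TGFβ (-1.63) and 10.2-fold lower with IL-6/TGFβ than in the IL-6/IL-23 culture (-3.35). Ifitm2 and Ifitm3 had 1 probe set each. Ifitm1 was above the floor on the IL-6/IL-23 array alone, at 57.7, close to the floor. Bst2, the membrane protein tetherin that holds budding virus on the cell surface, differed little at 399, 435.5 and 493.

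Upstream sequences of Ifitm2 and Ifitm3 are shown because these genes had the widest gaps among the transmembrane proteins. They are RefSeq sequences of build GRCm38.p6, the 200 bases before the annotated start, 5′ to 3′ on the gene's strand. Capitals mark matches to the core of the interferon-stimulated response element, spelled GAAANNGAA or, on the other strand, TTCNNTTTC, where matches may overlap. The Ifitm2 window lies at chr7:140955962-140956161 and the Ifitm3 window at chr7:141010745-141010944, both on the minus strand.
Ifitm2: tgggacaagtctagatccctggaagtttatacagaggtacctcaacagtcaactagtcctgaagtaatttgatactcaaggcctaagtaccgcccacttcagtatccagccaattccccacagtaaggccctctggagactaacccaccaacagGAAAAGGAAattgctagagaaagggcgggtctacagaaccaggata
Ifitm3: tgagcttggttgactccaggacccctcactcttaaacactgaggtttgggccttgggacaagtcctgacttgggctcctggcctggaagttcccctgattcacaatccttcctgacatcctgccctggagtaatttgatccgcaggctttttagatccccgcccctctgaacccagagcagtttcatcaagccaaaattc
The Ifitm2 window holds 1 match and the Ifitm3 window holds 0 of these letters. A match is a description of the sequence and not a shown binding site.

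Among the sensors, Ifih1 was brightest with IL-6/IL-23 and Mndal with TGFβ. Ifih1 encodes MDA5, a receptor for long double-stranded RNA in the cytosol, and read 200.2, 698 and 60.2. It was brightest with IL-6/IL-23 and dimmest with IL-6/TGFβ, as for Ifitm2, and both genes kept this order as deposited. Its ratios were 1.80 for IL-6/IL-23 over TGFβ (3.49-fold), -1.73 for IL-6/TGFβ over TGFβ (3.32-fold lower) and -3.53 for IL-6/TGFβ relative to IL-6/IL-23 (11.6-fold lower). Zbp1, a sensor of Z-form nucleic acid that can start necroptosis, read 429.8, 1116 and 670.0. It was 2.60-fold higher with IL-6/IL-23 than with TGFβ (1.38), and a further probe set gave 1.07.

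Mndal, an interferon-inducible nuclear protein of the HIN-200 family that contains DNA sensors, read 692, 151 and 140.5. Here the TGFβ array was the bright one and both arrays with IL-6 were low and close together. Mndal was 4.93-fold lower with IL-6/TGFβ relative to TGFβ (-2.30) and 4.58-fold lower with IL-6/IL-23 than with TGFβ (-2.19), and the arrays with IL-6 differed by -0.11. A further probe set of Mndal gave -2.83 and -2.63 over TGFβ, in the same order. Of the 7 measured myeloid markers, 3 were above the floor. Mpeg1 was highest with TGFβ, at 153 against the floor on both others, Csf1r was highest with IL-6/TGFβ (63.2, floor and 79.4), and Cd68 exceeded the floor with IL-6/IL-23 alone (49.4). With values at the floor counted as the floor, the 7 summed to 449, 329 and 359, a difference carried mostly by Mpeg1, and the part of such cells in the Mndal values was not tested.

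Ifi203, of the same family, was near the floor in its own probe set at 47.5 and 50.4 on the TGFβ and IL-6/IL-23 arrays and at the floor with IL-6/TGFβ. Brighter probe sets that Ifi203 shares with other loci read 552, 91.0 and 78.9, and 164, floor and 58.0, both brightest with TGFβ. A further shared one was at the floor on each array. Whether Ifi203 itself differed between the arrays is thus not settled. Upstream sequences of this pair are shown because the bases next to an annotated start of Mndal and of Ifi203 are alike. The Mndal window lies at chr1:173880188-173880263 and the Ifi203 window at chr1:173942493-173942567, both on the minus strand of GRCm38.p6 and ending just before the start, with the core match in capitals.
Mndal: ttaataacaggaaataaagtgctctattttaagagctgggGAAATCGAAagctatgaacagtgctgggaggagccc
Ifi203: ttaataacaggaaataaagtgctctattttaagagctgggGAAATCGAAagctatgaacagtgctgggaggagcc
Over the 75 bases set side by side, 75 were identical.

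Other RNA sensors and their regulators were called in none of the comparisons. Ddx58, which encodes the RNA sensor RIG-I, read 98.4, 153 and 168, with 0.77 as its largest ratio. Trim25, the ubiquitin ligase that acts on RIG-I, read 642, 759.6 and 671. Dhx58, the third member of the RIG-I family, was at the floor on each array. The IL-6/TGFβ array thus gave the lowest of the 3 levels of Ifih1 and the highest of the 3 levels of Ddx58.

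Of 7 measured enzymes of double-stranded RNA defence, 3 were above the floor. Oas3, which makes 2'-5' oligoadenylate to activate RNase L, read 127.5 with IL-6/IL-23 and was at the floor on both others, so it was at least 2.74-fold higher there. The related genes Oas1a, Oas2, Oasl1 and Oasl2 were at the floor on each array. Eif2ak2, the RNA-activated kinase PKR, read 98.6, 104 and 104.5, and Adar, which edits adenosine in double-stranded RNA, read 555, 606.5 and 530.5. Both differed by less than the probe-set spread in each comparison.

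The upstream windows of Ifih1 and Oas3 are shown as genes brightest with IL-6/IL-23, and that of Ifit1 as a gene that stayed at or near the floor (47.7 with IL-6/IL-23, under it otherwise). They lie at chr2:62646256-62646455 (minus strand), chr5:120777660-120777859 (minus strand) and chr19:34640689-34640888 (plus strand) of GRCm38.p6, with core matches in capitals.
Ifih1: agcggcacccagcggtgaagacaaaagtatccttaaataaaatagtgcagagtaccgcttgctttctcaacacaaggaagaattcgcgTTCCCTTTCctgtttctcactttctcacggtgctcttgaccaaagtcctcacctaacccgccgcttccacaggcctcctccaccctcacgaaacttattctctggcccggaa
Oas3: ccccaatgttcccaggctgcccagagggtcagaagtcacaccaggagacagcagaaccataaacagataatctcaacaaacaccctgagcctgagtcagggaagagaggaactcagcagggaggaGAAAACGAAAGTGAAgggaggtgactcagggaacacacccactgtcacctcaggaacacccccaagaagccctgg
Ifit1: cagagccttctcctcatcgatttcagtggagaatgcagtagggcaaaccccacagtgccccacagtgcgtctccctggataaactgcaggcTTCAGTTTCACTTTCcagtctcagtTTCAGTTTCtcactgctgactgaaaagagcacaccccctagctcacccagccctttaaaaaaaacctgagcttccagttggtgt
Ifih1 has 1 match, Oas3 has 2 overlapping matches and Ifit1 has 3, of which 2 overlap. Matches thus stood upstream of Ifih1 and Oas3, which were called, and of Ifit1, which was not.

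Of the 51 listed genes, 40 were found by symbol in the RefSeq promoter table. Within 250 bases upstream of an annotated start, 14 of them (35%) held the response element core on either strand, against 8.18% of 27025 genes in the table. The gamma-activated site pattern TTCNNNGAA, which reads the same on both strands, was in 9 of the 40 (22.5%) and in 8.13% of all genes. Of 13 measured genes with the core, 11 were above the floor and 4 were called in at least 1 comparison. Of 25 measured genes without it, 23 were above the floor and 5 were called. The share of all genes called in at least 1 comparison was not computed, so no difference between these counts is read. Ifitm3 and Parp12 are among the called genes without these letters in the window.

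Usp18, the protease that removes ISG15 from proteins and restrains type I interferon receptors, read 103, 97.5 and 49.5. It was dimmest with IL-6/TGFβ, close to the floor. The ratio was -1.05 over TGFβ (2.08-fold lower) and -0.98 over IL-6/IL-23, so the 2-fold rule fell between nearly equal values, and median scaling gave -1.01 for the second.

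Parp12, an antiviral ADP-ribosyltransferase, read 118 with IL-6/IL-23 and was at the floor on the others, so these were at least 2.525-fold lower. Oas3 had the same pattern. Parp9 and Dtx3l, partners in an ubiquitin ligase complex, differed by less than 2-fold, at 670.2, 924 and 901 for Parp9 and 738, 665 and 710.2 for Dtx3l. Parp14, a further family member, read 443, 361 and 349.

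Of 14 measured antiviral and other effector genes, 10 were above the floor and 1 was called. This was Ifi35, a leucine zipper protein induced by interferon, at 2801, 1322 and 3143. It was lowest on the IL-6/IL-23 array, with a ratio of 1.25 for IL-6/TGFβ relative to IL-6/IL-23 and -1.08 for IL-6/IL-23 against TGFβ. That 1 call was 10.0% of the 10 genes in each of these pairs, where all genes gave 3.91% higher and 3.44% lower. The calls rest on the brightest of 3 probe sets, since the others gave 0.37 and 0.16 in the first pair and -0.57 and -0.08 in the second.

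The IFIT genes, whose proteins bind foreign RNA ends and block its translation, were dim or close together. Ifit2 read 237, 179.7 and 157, and Ifit3 was above the floor on the TGFβ array alone at 65.9. Ifi47, an interferon-γ-induced GTPase, read 4665, 3030 and 4280. Samhd1, which destroys the nucleotides needed for reverse transcription, read 1553, 1378 and 2181, and 4 further probe sets also gave a positive ratio for IL-6/TGFβ over TGFβ, between 0.15 and 0.38. None of these genes reached a 2-fold gap in any pair.

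The remaining effectors were not called. Trim30a, an inhibitor of Toll-like receptor signalling, read 454, 402.5 and 255, with ratios of -0.83 and -0.66 for IL-6/TGFβ over TGFβ and over IL-6/IL-23. Xaf1, a pro-apoptotic protein, read 62.8, 119.5 and 61.5, just under 2-fold higher with IL-6/IL-23 than with TGFβ (0.93). Isg20, an RNA exonuclease, read 70.9 and 71.7 and was at the floor with IL-6/TGFβ, so its ratios of -0.60 and -0.62 there are bounds, and with a lower floor, the 90th percentile, it was called lower (-1.23 and -1.24). Lgals3bp, a secreted galectin ligand, read 541, 745.5 and 495.

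Antigen processing genes shared a direction in IL-6/TGFβ over TGFβ, with small ratios. The group comprised the immunoproteasome subunits Psmb8, Psmb9 and Psmb10, the peptide transporter genes Tap1 and Tap2, the loading factor Tapbp and Nlrc5, the transactivator of MHC class I genes. In that pair 7 of 7 had a negative ratio, with a median of -0.42 and a range from -0.93 to -0.12, and 0 were called. Over all genes 4475 of 9888 ratios were negative there. The 7 of 7 were negative under each of 4 scalings, the deposited values included. On the deposited values the sign says little, since the median of all genes was -0.41 there, against -0.87 for the group.

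Tap2 had the most negative ratio of this group. It read 1340, 896 and 703, a ratio of -0.93 for IL-6/TGFβ over TGFβ, which passed 2-fold under each other scaling (-1.04 by medians, -1.01 by hybridization controls and -1.39 without scaling). Tap1 read 2136, 1667 and 1266 (-0.75). A further, dim probe set gave a bound of -0.63 and was brightest with IL-6/IL-23, at 72.0, 76.5 and floor. Psmb9 read 4112, 3446 and 2943 (-0.48), and Nlrc5 read 658, 594 and 492 (-0.42). For these 4 genes the normalized levels stood in the same order, TGFβ above IL-6/IL-23 above IL-6/TGFβ. Between the arrays with IL-6, Psmb9 (-0.23) and Nlrc5 (-0.27) differed by less than the probe-set SD of 0.30. As deposited, IL-6/TGFβ lay above IL-6/IL-23 in each of these genes, as for Tap2 at 702.4 against 658.5.

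Psmb8 at 4167, 4751 and 3287 and Psmb10 at 839, 1167 and 769.5 were brightest with IL-6/IL-23 after normalization. The Psmb8 ratio of IL-6/IL-23 over TGFβ, 0.19, was below the probe-set SD of 0.31. A further, dimmer Psmb8 probe set gave -0.75 there, brightest with TGFβ at 368. As deposited both genes were brightest with TGFβ, Psmb8 at 5539 against 3636 with IL-6/IL-23 and Psmb10 at 1146 against 852.7. Tapbp, at 2846, 1741 and 2402, was dimmest with IL-6/IL-23, although a further probe set gave -0.37 where the main one gave 0.46 for IL-6/TGFβ relative to IL-6/IL-23. In that pair 6 of the 7 genes were negative, with a median of -0.35, where 5208 of 9888 ratios over all genes were negative. The count became 2 of 7 on the deposited values without scaling, where the median of all genes was 0.39. Psmb9 and Tap1 lie head to head in the genome, and their 200-base upstream windows overlap by 175 bases. The window of Tap1, at chr17:34187356-34187555 on the plus strand of GRCm38.p6, is shown because it covers most of the upstream window of both genes and holds no response element core.
Tap1: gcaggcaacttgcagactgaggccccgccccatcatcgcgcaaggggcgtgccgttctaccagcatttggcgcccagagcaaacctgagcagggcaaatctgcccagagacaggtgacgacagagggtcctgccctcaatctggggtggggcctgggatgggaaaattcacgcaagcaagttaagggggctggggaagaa

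**Figure D3:**
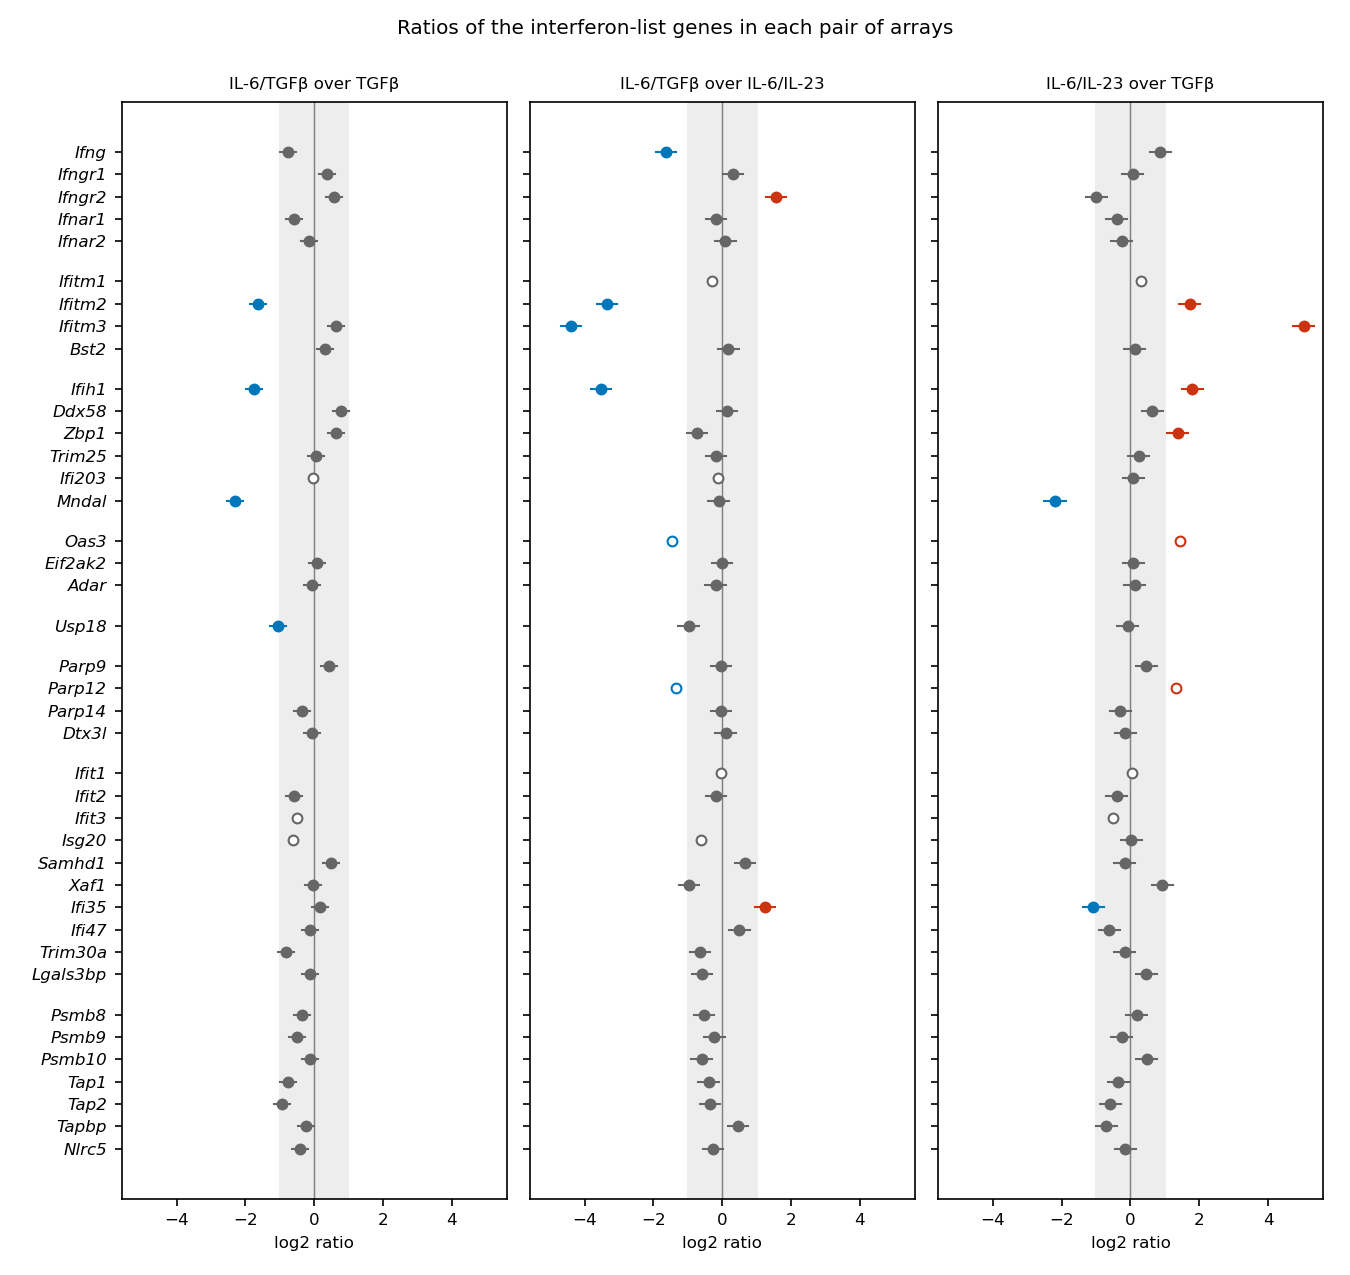
Log2 ratios of the interferon-list genes in the 3 pairs of arrays (horizontal axis), in the same order of genes as the plot of levels, with bars for the probe-set SD of 0.23, 0.30 and 0.31. Red and blue points are called higher and lower, open points have 1 array at the floor and are bounds, and the grey band marks less than 2-fold. Ifitm3 reaches 5.04 in IL-6/IL-23 over TGFβ, and the antigen processing genes at the bottom lie left of 0 in IL-6/TGFβ over TGFβ.

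Across the list, 15 of the 40 genes were brightest with TGFβ, 18 with IL-6/IL-23 and 7 with IL-6/TGFβ. These are 37.5%, 45.0% and 17.5%, against 26.2%, 41.7% and 32% of all genes above the floor. The brightest array depended on scaling. After scaling to the control probe sets for hybridization, the counts were 18, 13 and 8 of 39 genes, against 38.6%, 29.8% and 31.7% of all genes. Without scaling they were 29, 6 and 3 of 38, against 84.2%, 3.2% and 12.6%, so the share with TGFβ, above that of all genes after normalization, was below it there. The share on the IL-6/TGFβ array was below that of all genes after quantile normalization, after median scaling (6 of 40 genes, against 20.6% of all), after hybridization control scaling and without scaling.

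Further genes of the pathway came from 4 lists outside the 51 genes. Of 13 measured signalling genes, 13 were above the floor on each array, and the 1 called was Socs3, a feedback inhibitor that IL-6 also induces, higher in each of the 3 comparisons. That 1 gene was 7.69% of the 13 each time, where all genes gave 2.75%, 3.91% and 3.71% higher. Jak2, the kinase on the interferon-γ receptor, read 1272, 2437 and 1520, and Stat2 and Irf9, partners in the type I interferon complex, differed by less than 2-fold. Ifnb1, Ifna1, Ifna2 and Ifna4, type I interferon genes, were at the floor on each array. Of 14 measured genes that sense nucleic acid or make interferon, 8 were above the floor. In IL-6/TGFβ over TGFβ 0 were higher and 1 lower (12.5%), against 2.75% and 2.17% of all genes. Over IL-6/IL-23, 1 was higher (12.5%) and 0 lower, against 3.91% and 3.67%. In IL-6/IL-23 over TGFβ 0 were higher and 2 lower (25.0%), against 3.71% and 3.44%. The kinase Ikbke (-1.51 for IL-6/TGFβ over TGFβ, -1.25 for IL-6/IL-23 over TGFβ) and the adaptor Traf6 (1.41 for IL-6/TGFβ relative to IL-6/IL-23, -1.46 for IL-6/IL-23 over TGFβ) were those called.

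Of 32 further interferon-induced genes that were measured, 23 were above the floor. In IL-6/TGFβ over TGFβ 0 were higher and 3 lower (13.0%), where all genes gave 2.75% and 2.17%. The lower genes were Cd274 (PD-L1, -2.52), the guanylate-binding protein gene Gbp6 (-1.99) and the GTPase gene Iigp1 (-1.56). In IL-6/TGFβ relative to IL-6/IL-23 0 were higher and 5 lower (21.7%), where all genes gave 3.91% and 3.67%. The lower genes were Cd274 (-2.48), Gbp7 (-2.29), Gbp6 (-1.99) and the inflammatory caspase genes Casp4 and Casp1. These caspase genes were at the floor on both arrays with TGFβ and read 280.4 and 153 with IL-6/IL-23. In IL-6/IL-23 over TGFβ 4 were higher (Casp4, Casp1, Gbp7 and Pml) and 2 lower (Irf8 at -1.41 and Iigp1 at -1.04). These are 17.4% and 8.7%, where all genes gave 3.71% and 3.44%. The medians of this list were -0.17, -0.37 and 0.01 in the 3 comparisons. Casp1 and Casp4, like Oas3 and Parp12, passed the floor through the IL-6/IL-23 array alone, so their direction too was fixed by that filter, though not its size.

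Of 16 measured genes on a list of interferon-γ regulators in T cells and related genes such as Cxcr3, 14 were above the floor. Tbx21, deleted in these mice, is among the 14 and was called in none of the comparisons. In IL-6/TGFβ relative to IL-6/IL-23, 0 were higher and 6 lower (42.9%), where all genes gave 3.91% and 3.67%. Il12rb2, among the lower genes, passed the floor through the IL-6/IL-23 array alone at 101, so its direction was fixed by that filter, though not its size. The lower genes also included the chemokine receptor Cxcr3 at 107, 561 and 136 (-2.05) and the transcription factor Bhlhe40 at 1650, 3884 and 1406 (-1.47). Also lower was the IL-12 receptor chain Il12rb1 at 504, 1908 and 718 (-1.41). Gata3, the Th2 transcription factor, was at the floor with IL-6/TGFβ (at least 2.58-fold lower). In IL-6/IL-23 over TGFβ 6 were higher (42.9%), Il12rb2 again among them, and 1 lower (7.14%), where all genes gave 3.71% and 3.44%. The higher genes were led by Cxcr3 (2.39), the transcription factor Batf (1.98), Il12rb1 (1.92) and Stat4 (1.60), which carries the IL-12 signal. In IL-6/TGFβ over TGFβ 2 were higher (14.3%), Batf (1.60) and the transcription factor Runx3 (1.06). In the same pair 3 were lower (21.4%), Gata3 (at least 5.54-fold), Il18r1 (-1.20) and Eomes (at least 2.29-fold). All genes gave 2.75% higher and 2.17% lower there.

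Scaling bears on these values because the deposited intensities were dimmest for IL-6/IL-23. Without scaling the median ratio of all genes above the floor was -0.41, 0.39 and -0.82 in the 3 comparisons, and median scaling gave -0.06, -0.18 and 0.11. Of all called genes, 55.9%, 51.6% and 51.9% were higher after quantile normalization, 44%, 37.4% and 54.1% after median scaling, 46.8%, 64% and 33.6% after scaling to hybridization controls, and 15.2%, 89.4% and 2.5% without scaling. In the pairs in which a list gene was called, its ratio kept its sign under these scalings. In other pairs signs turned, as for Ifng in IL-6/IL-23 over TGFβ (-0.13 without scaling) and for Mndal in IL-6/TGFβ relative to IL-6/IL-23 (0.08 with the hybridization controls and 0.48 without scaling). Without scaling, Oas3 and Parp12 were under 2-fold in both of their pairs (0.81 and 0.68 for IL-6/IL-23 against TGFβ), as were Ifitm2 (0.83), Ifih1 (0.87) and Zbp1 (0.45) over TGFβ. Ifi35 was under 2-fold over TGFβ after median scaling (-0.97). Relative to the median of all genes, Ifitm3 lay between 4.96 and 5.04 in IL-6/IL-23 over TGFβ under the 3 alternative scalings, and Ifih1 between -3.49 and -3.41 in IL-6/TGFβ relative to IL-6/IL-23.

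**Figure D4:**
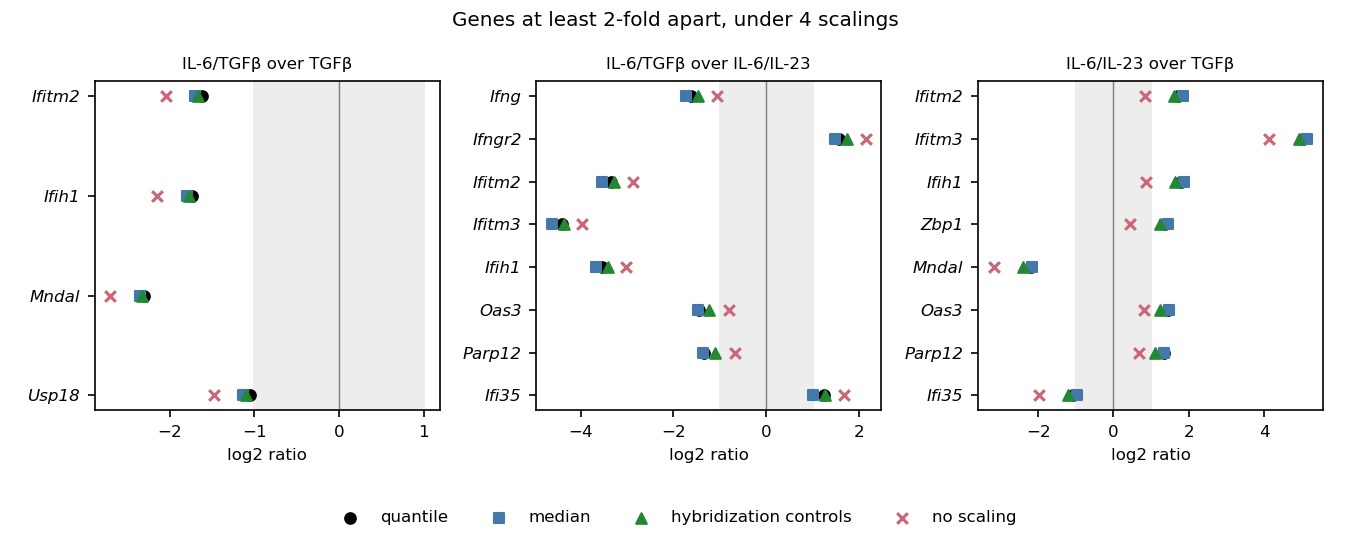
Log2 ratios (horizontal axis) of the interferon-list genes called in each pair of arrays under quantile normalization, median scaling, scaling to the hybridization controls and no scaling, from 1 array per condition. The grey band marks less than 2-fold. Ifitm2, Ifih1, Zbp1, Oas3 and Parp12 enter the band in IL-6/IL-23 over TGFβ without scaling, and each gene keeps its side of 0.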

How the data were processed

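Members and gene lists were chosen with earlier results of these data known. Per the labels' protocols, total RNA was turned into biotin-labelled cRNA for Affymetrix arrays. The authors deposited 1 linear intensity per probe set and array. How they summarized probes, scaled arrays or removed background was not given in the sources used here. Control probe sets (64 of 45101) were left out, and log2 intensities were quantile-normalized with limma 3.58.1 in R 4.3.3, because array medians differed by over 10%. This removes any real difference in total mRNA. Symbols came from the platform annotation: 34945 probe sets had 1 symbol, 932 had several and 9160 had none. The floor, 2-fold rule and probe-set SD (from the scaled median absolute deviation between probe sets of a gene, over 3996, 3951 and 3964 genes) are described with the results. The number of arrays, 1 per condition, limits precision. The script that makes the calls was tested on simulated data, which says nothing about replication. Every measured member is named. From other lists up to 4 genes with the largest ratios per comparison could be named by rule. Not all of these are named where they were not called, and others named there, such as Stat2, Irf9, Casp1, Pml and the genes at the floor, were chosen after their values were seen. Alternatives covered scaling, floor, probe set choice and fold.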

Additional observations from a re-analysis of the deposited data

How the results depend on the processing

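Over 9 alternatives the counts below left the range of 1.5 times the reported count, or the medians moved by more than the probe-set SD. The counts are out of 38 members without scaling, 29 with the 99th percentile floor and 49 without a floor. They are out of 38 with the mean of probe sets and 40 with each fold rule. For IL-6/TGFβ over TGFβ, the members lower were 11 without scaling, 2 with a 99th percentile floor, 9 without a floor and 10 with a 1.5-fold rule (7.34%, 1.39%, 10.9% and 6.73% of all genes), and the members higher were 1 without a floor and 3 with a 1.5-fold rule (11.9% and 7.93%). For IL-6/TGFβ relative to IL-6/IL-23, the members lower were 3 with the 99th percentile floor, 11 without a floor and 13 with a 1.5-fold rule (2.59%, 13.5% and 10.9% of all genes). The members higher there were 1 with the 99th percentile floor, 1 with the mean of probe sets and 0 with a 3-fold rule (3.24%, 3.65% and 1.35%). In the pair IL-6/IL-23 over TGFβ, the members lower were 18 without scaling, 4 without a floor, 1 with the mean of probe sets, 5 with a 1.5-fold rule and 1 with a 3-fold rule (34.1%, 12.3%, 3.24%, 8.85% and 1.08% of all genes), and the members higher were 1 without scaling and 3 with a 3-fold rule (0.873% and 1.40%). Without scaling the median ratios of the members were -0.59, 0.18 and -0.94. Without a floor dim values have no meaningful order. The calls of Ifitm3 and Mndal held under each of 7 alternatives of scaling, floor and probe set choice, and Oas3 and Parp12 kept theirs in 5. Ifi35 lost its calls with the mean of probe sets (0.59 and -0.58). With the 99th percentile floor Usp18, Oas3 and Parp12 dropped out, and Ifng (-0.43), Ifngr2 (0.64) and, over TGFβ, Ifih1 (-0.24) fell short of 2-fold, since that floor of 169 lies above 1 or more of their levels. The cause of the other moves was not tested. No paired analysis was possible because each condition had 1 array.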

Other observations

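Probe sets that match several genes were not used for the list. A probe set shared by Isg15, a ubiquitin-like antiviral modifier, and Gm9706 read 56.4 with TGFβ, 150.2 with IL-6/IL-23 and 44.1, under the floor, with IL-6/TGFβ. Its ratios were 1.41 for IL-6/IL-23 over TGFβ and -1.69 for IL-6/TGFβ relative to IL-6/IL-23, in the order seen for Ifih1 and Ifitm2. A probe set shared by Mndal, Ifi211, Ifi205 and Ifi204 was brightest with TGFβ at 319.5, read 57.8 with IL-6/TGFβ and lay under the floor with IL-6/IL-23. A probe set shared by Ifi203, a pseudogene and uncharacterized loci read 552 with TGFβ, 91.0 with IL-6/IL-23 and 78.9 with IL-6/TGFβ, a ratio of -2.81 for IL-6/TGFβ over TGFβ, where the dim probe set of Ifi203 alone gave -0.03. These probe sets were chosen after their values were seen.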
